A study of Mus musculus with 16 samples.

Results

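The extracellular miRNAs of HCT116 cells were compared between cultures given 10 Gy of X-rays and unirradiated cultures (0 Gy). HCT116 is an established human colorectal carcinoma line with wild-type p53, and per the labels the culture supernatant was collected 72 h after exposure at a high dose rate. The medium was RPMI1640 with 10% fetal bovine serum in both groups, and no genetic change or drug is given for either. The arrays titled 0 Gy and 10 Gy, numbered 1 to 4 at each dose, were taken, 8 of the 16 arrays in the series; the other 8 were from cultures given 2 or 6 Gy. The series' design text names 4 independent cultures a dose and each gave 1 array. The labels give the organism as mouse, but the line is human and the arrays carry human probes, and the values were taken as human. All 1205 human miRNAs on the array were members of the comparison, and 283 of them could be tested, a test requiring that 1 or more probes were detected on the whole set of 4 arrays of any dose.

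MicroRNAs are short RNAs that guide Argonaute proteins to messenger RNAs, mainly through pairing of the seed (bases 2 to 8), and lower the output of those messengers. Cells release them in vesicles and bound to proteins, and dying cells shed them, so a supernatant holds a mixture of released miRNAs, together with any that the serum brings. After ionising radiation, p53 is known to raise transcription of miR-34a and a few other miRNAs inside cells.

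Levels are given as log2 of an array's signal for a miRNA after division by that array's own 75th percentile, with a floor at -4.60. Levels of different miRNAs cannot be set against each other, only those of 1 miRNA on different arrays. Differences are 10 Gy minus 0 Gy on this log2 scale, with the standard error (SE) from limma and p-values adjusted by Benjamini-Hochberg over the 283 miRNAs, at a threshold of 0.05. Labelling used 100 ng of RNA and each array was scaled to itself, so a level is relative to the other RNA measured. It is not an amount in the supernatant, and a change in all released RNA alike would not be seen. Fewer cells releasing a miRNA and less of it released per cell cannot be told apart in such samples.

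The sequences below are of the miRNAs on which the results turn: both arms of miR-149, miR-134-5p and miR-188-5p of those with higher means, and members of families with lower means. They are the mouse mature sequences of the same name (miR-21a-5p and miR-365-3p for miR-21-5p and miR-365a-3p), credited to RefSeq on GRCm38.p6, as human sequences were not used here. They are printed 5′ to 3′ with the seed in capitals.
miR-149-3p: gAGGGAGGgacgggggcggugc
miR-149-5p: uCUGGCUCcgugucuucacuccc
miR-134-5p: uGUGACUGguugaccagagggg
miR-188-5p: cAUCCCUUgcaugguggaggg
miR-30e-5p: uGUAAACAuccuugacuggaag
miR-365a-3p: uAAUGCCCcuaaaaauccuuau
miR-92b-3p: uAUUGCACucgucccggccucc
miR-25-3p: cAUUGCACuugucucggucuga
miR-21-5p: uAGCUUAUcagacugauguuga
miR-27a-3p: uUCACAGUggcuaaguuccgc
miR-27b-3p: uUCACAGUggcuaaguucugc
let-7b-5p: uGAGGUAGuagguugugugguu
let-7c-5p: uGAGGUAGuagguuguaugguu
let-7i-5p: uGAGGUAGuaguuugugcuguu
miR-125b-5p: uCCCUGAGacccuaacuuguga
The pair miR-92b-3p and miR-25-3p share the seed AUUGCAC, miR-27a-3p and miR-27b-3p share UCACAGU, and the 3 let-7 members share GAGGUAG. In mouse both arms of miR-149 come from 1 miRNA gene, the 3p arm at chr1:92850421-92850442 and the 5p arm at chr1:92850381-92850403, both on the plus strand. The mouse 3p arm has a GC content of 81.8% and the 5p arm 60.9%. Of the 283 tested names 91 (32.2%) matched a mouse miRNA, too few for a comparison by base composition, which is therefore void.

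None of 6 measures of a whole array passed a test between the doses. At 0 Gy 327.5 ± 22.5 human miRNAs were detected and at 10 Gy 293 ± 35.1 (SD, n = 4 each; p = 0.143, exact two-sided permutation test, adjusted 0.429 over the 6), and the unscaled 75th percentile was 8.84 ± 0.35 and 8.61 ± 0.31 on the log2 scale (exact permutation p = 0.371, adjusted 0.48). The smallest p that 4 against 4 arrays allow is 0.0286. Replicate 3 at 0 Gy stood apart: it was the lowest of its dose by more than 1 log2 unit for 33 miRNAs, against 0 for each other 0 Gy array. Its median correlation with the arrays of its dose was 0.906, against 0.977 to 0.989 for the other 3. The labelling spike-in, an RNA added at the labelling step, was not detected on that array and lay between 6.06 and 10.1 on the other 7 on the log2 scale. It was within the scanner software's range on only 3 of these 8 arrays (0 Gy replicates 1 and 4 and 10 Gy replicate 2), and it was undetected on 6 Gy replicate 4 too. The counts of calls and a part of the values are therefore also given without that 0 Gy array or from a fit that takes the spike-in level into account. The 0 Gy arrays all lay on 1 slide, in its columns 1 and 2, and the 10 Gy arrays on the other slide, in columns 3 and 4. Dose, slide and column thus cannot be told apart in any difference between 10 and 0 Gy. The 6 Gy arrays shared the slide of 10 Gy and the columns of 0 Gy, and the 2 Gy arrays the slide of 0 Gy and the columns of 10 Gy.

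miR-149-3p had a higher relative level in the supernatant RNA at 10 Gy than at 0 Gy, and it was the only miRNA of the 283 to pass the test (0.353% called, 0 lower). miR-149-3p is the passenger-side arm of the miR-149 hairpin and was reported as p53-responsive in earlier work on other cells. Its levels at 0 Gy were -3.17, -3.31, -2.77 and -3.19, and at 10 Gy -2.40, -2.62, -2.47 and -2.43. All 4 irradiated cultures lay above all 4 controls, the highest control being replicate 3. The difference was 0.63 ± 0.12 (SE, n = 4 each), a 1.55-fold higher mean, with an adjusted p of 0.0272 in limma. All 3 of its probes were higher, by 0.48 to 0.77. Without 0 Gy replicate 3 the difference was 0.74 (adjusted p = 0.00105), and with the spike-in level in the fit it was 0.66 (adjusted p = 0.000268). The call was lost when any of 7 other arrays was left out (0 Gy replicates 1 and 4, 2 Gy replicate 4, 6 Gy replicate 2, and 10 Gy replicates 1, 3 and 4), with adjusted p between 0.0503 and 0.135, and it was lost when only the 8 arrays entered the fit (adjusted p = 0.164), without scaling (0.39, adjusted p = 0.767) and with normexp background correction (0.38, adjusted p = 0.185).

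The other arm of the hairpin, miR-149-5p, chosen after its values were seen, was detected on all 8 arrays and did not share this direction. It stood at -3.12, -3.71, -3.59 and -3.50 at 0 Gy and at -3.74, -3.74, -3.86 and -3.71 at 10 Gy. All 4 irradiated arrays were below all 4 controls by a small margin, the difference being -0.28 ± 0.12 (adjusted p = 0.195), which did not pass. A test of the difference between the arms was not made.

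Below the threshold, 63 miRNAs had an unadjusted p under 0.05 (22.3%), 38 with higher (13.4%) and 25 with lower means (8.83%) at 10 Gy. For 43 miRNAs (15.2%) the arrays of the doses did not overlap, 28 with all 10 Gy arrays above (9.89%) and 15 with all below (5.3%). Over all 283, the median difference was -0.02, with 134 positive and 149 negative, and the extremes were uneven: 11 miRNAs had means lower by more than 1, and 0 had means higher by more than 1. A miRNA detected in full at 0 Gy alone could enter the test, which favours lower means at 10 Gy. miR-30e-5p, miR-27b-3p, miR-92b-3p and miR-539-5p entered in this way, so the filter has a part in their falls. Entry through 10 Gy alone would favour higher means, and entries each way were not counted. The median of all miRNAs was -0.23 without scaling and 0.18 when arrays were scaled over all probes, so small differences are relative to that choice.

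**Figure D1:**
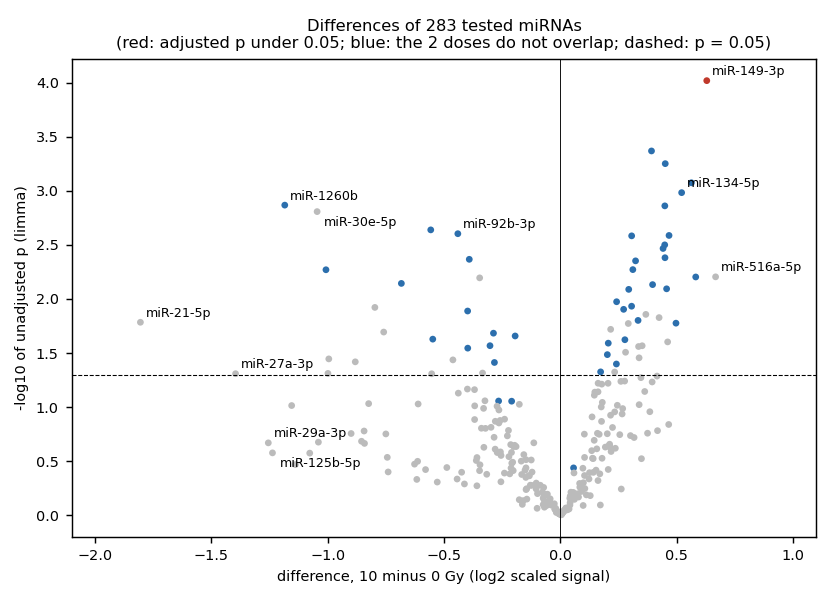
Difference at 10 minus 0 Gy in log2 scaled signal (horizontal) against the -log10 of the unadjusted limma p (vertical), 1 point for each of the 283 tested miRNAs. The red point is miR-149-3p; blue points are the other miRNAs whose arrays did not overlap between doses; the largest differences all lie on the left, with miR-21-5p at -1.80.

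The miRNAs next in order on the higher side were of small and even differences. miR-3610 stood at 0.01, 0.11, 0.37 and 0.13 at 0 Gy and at 0.60, 0.44, 0.52 and 0.62 at 10 Gy, without overlap. Its difference was 0.39 ± 0.09 (adjusted p = 0.053). miR-1226-5p, from a mirtron, an intron that is spliced into a miRNA hairpin, stood at -1.13, -0.96, -0.99 and -0.76 and then at -0.47, -0.58, -0.56 and -0.43. Here too each irradiated array was above each control, with a difference of 0.45 ± 0.10 (adjusted p = 0.053). miR-3605-5p differed by 0.56 ± 0.13 (adjusted p = 0.0552), its lowest 10 Gy array (-2.62) lying above its highest 0 Gy array (-2.82).

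miR-134-5p, a neuronal miRNA of an imprinted cluster, had levels of 1.64, 2.07, 2.13 and 2.14 at 0 Gy and of 2.57, 2.35, 2.50 and 2.63 at 10 Gy. The groups did not overlap, and replicate 1 was the low control. The difference was 0.52 ± 0.13 (adjusted p = 0.0552). miR-539-5p, of the same imprinted cluster, was on the lower side, at -3.99, -3.97, -4.48 and -4.26 at 0 Gy and at -4.45, -4.60, -4.60 and -4.44 at 10 Gy, a difference of -0.35 ± 0.11 (adjusted p = 0.0822). Its 10 Gy levels were at or just above the floor, it was detected on 4 control arrays and 1 irradiated array, and its difference turned to 0.02 with normexp background correction. miR-494-3p, of the same region, differed by -0.82 ± 0.46 (adjusted p = 0.309). These are not all the tested miRNAs of that region, which had no list of its own.

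The X-linked neighbours miR-188-5p and miR-500a-5p both had higher means without overlap, by 0.44 ± 0.13 (adjusted p = 0.0691) and by 0.45 ± 0.13 (adjusted p = 0.0689). miR-188-5p stood at 3.53, 4.10, 3.90 and 4.24 at 0 Gy and at 4.42, 4.33, 4.35 and 4.44 at 10 Gy, so that the irradiated arrays spread far less than the controls. Other higher miRNAs among the 12 with the smallest p were miR-601, miR-422a, miR-769-3p, miR-373-5p and miR-4314, with differences of 0.31 to 0.47 and adjusted p of 0.0552 to 0.0741, none overlapping. The largest higher difference of all was that of miR-516a-5p, from a primate-specific cluster active in placenta, at 0.67 ± 0.21 (adjusted p = 0.0822). Its highest control, replicate 3 at -2.81, lay above the lowest irradiated array at -2.85.

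**Figure D2:**
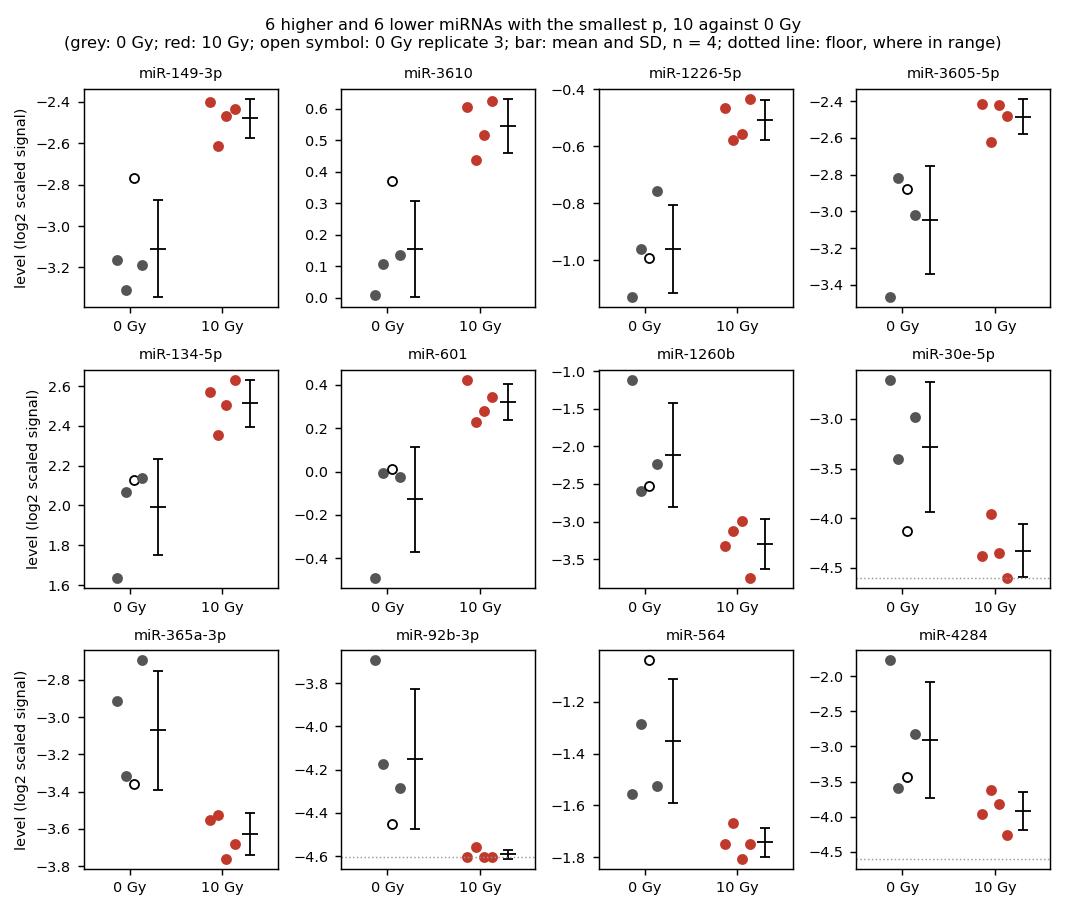
Level (log2 scaled signal) on each array of 0 and 10 Gy for the 6 higher and 6 lower miRNAs with the smallest p; points are arrays, the open point is 0 Gy replicate 3, and bars are mean and SD (n = 4). The 6 higher miRNAs differed by 0.39 to 0.63, of which only miR-149-3p passed the test, and for miR-92b-3p and miR-30e-5p some 10 Gy arrays sit on the floor, drawn as a dotted line where it is in range.

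On the lower side the smallest p belonged to miR-1260b, listed here among names that may stand for fragments of other RNAs. Its levels were -1.11, -2.59, -2.53 and -2.23 at 0 Gy and from -3.75 to -2.99998 at 10 Gy, with a pair of arrays between at -3.33 and -3.12. Each irradiated array lay below each control, and replicate 1 was the high control. The difference was -1.18 ± 0.30 (adjusted p = 0.0552), a 2.27-fold lower mean. miR-30e-5p, a member of the differentiation-linked miR-30 family, had -2.60, -3.41, -4.13 and -2.98 at 0 Gy and -4.38, -3.96, -4.35 and -4.60 at 10 Gy. Only control replicate 3 reached into the irradiated range, and the difference was -1.04 ± 0.27 (adjusted p = 0.0552). miR-365a-3p differed without overlap by -0.56 ± 0.15 (adjusted p = 0.0616).

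miR-92b-3p, a relative of the miR-17-92 cluster, lay at -3.69, -4.17, -4.45 and -4.28 at 0 Gy and at -4.60, -4.56, -4.60 and -4.60 at 10 Gy. At 10 Gy 3 of 4 arrays were at the floor, so the difference of -0.44 ± 0.12 (adjusted p = 0.0616) is bounded by it. With normexp background correction the difference was -0.00133 (adjusted p = 0.994). That setting adds an offset of 50 to the signal, which by itself draws the log2 differences of dim miRNAs towards 0. miR-345-5p and miR-564 differed without overlap by -0.68 ± 0.22 (adjusted p = 0.087) and -0.39 ± 0.12 (adjusted p = 0.0741).

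The largest difference in either direction was that of miR-21-5p, the abundant oncogenic miRNA of carcinomas. It stood at -0.88, -1.46, -2.98 and 0.03 at 0 Gy and at -2.99, -1.87, -3.40 and -4.25 at 10 Gy. Control replicate 3 was as low as the irradiated arrays, while the other 3 controls lay above all 4 of them. The difference was -1.80 ± 0.66 (adjusted p = 0.129), a 3.49-fold lower mean that did not pass. Without control replicate 3 it was -2.36 ± 0.62 (adjusted p = 0.0257), and with the spike-in level in the fit -2.01 (adjusted p = 0.0126).

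miR-27a-3p, which comes from a cluster with miR-23a and miR-24, had -0.69, -1.63, -3.53 and -1.35 at 0 Gy and -2.91, -2.45, -2.95 and -4.46 at 10 Gy. The same control array was the low one. The difference was -1.40 ± 0.65 (adjusted p = 0.221), or -1.97 ± 0.59 without it (adjusted p = 0.0373) and -1.62 with the spike-in level in the fit (adjusted p = 0.0141). miR-29a-3p, known for targeting collagen messengers, had 1.40, 1.68, -1.87 and 1.63 at 0 Gy and -0.44, 0.43, -0.34 and -1.82 at 10 Gy, a difference of -1.25 ± 0.96 (adjusted p = 0.466). The other 3 controls lay above every irradiated array, yet without replicate 3 the difference of -2.12 did not pass (adjusted p = 0.095). With the spike-in level in the fit it was -1.60 (adjusted p = 0.0436).

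miR-125b-5p, which targets p53 and other stress genes, showed the widest gap within the controls, at 0.73, 0.91, -3.43 and 1.12. Its 10 Gy levels were -1.73, -0.30, -0.84 and -2.76, between the low control and the other 3. The difference was -1.24 ± 1.06 (adjusted p = 0.502), -2.32 ± 0.89 without replicate 3 (adjusted p = 0.0844) and -1.60 with the spike-in level in the fit (adjusted p = 0.0826). None of these passed.

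**Figure D3:**
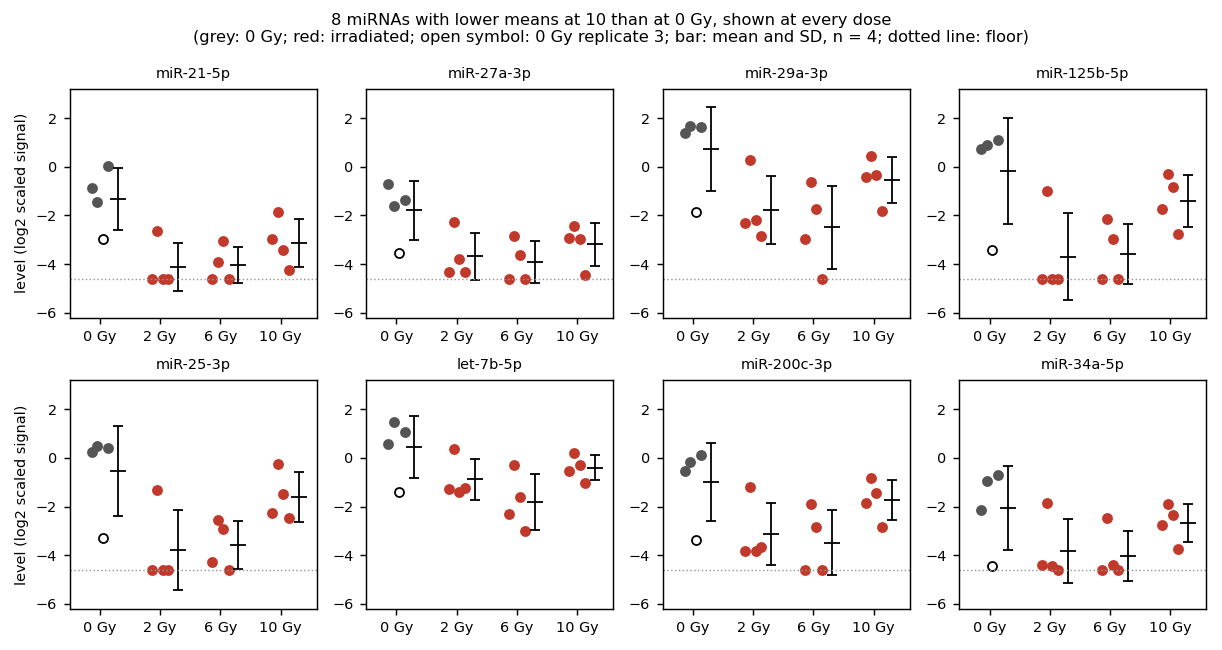
Level (log2 scaled signal) of 8 miRNAs at 0, 2, 6 and 10 Gy, each point an array, the open point 0 Gy replicate 3, bars mean and SD (n = 4), and the dotted line the floor. In these panels control replicate 3 is the lowest 0 Gy array (miR-125b-5p at -3.43 against 0.73 to 1.12), and the 10 Gy arrays mostly lie between it and the other controls.

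Without control replicate 3, 43 miRNAs were called (15.2%), 27 higher (9.54%) and 16 lower (5.65%). When the level of that spike-in entered the fit on all 16 arrays, 59 were called, 34 higher and 25 lower. The calls shared 39 miRNAs, 90.7% of the first list and 66.1% of the second, all with the same sign, and miR-149-3p was in both. Both fits used the same other arrays, and the spike-in level was lowest, at -2.32, on control replicate 3 and 6 Gy replicate 4. Their overlap is therefore no independent support for these calls. Of the 33 miRNAs for which replicate 3 was the low control, it was below the 10 Gy mean in 32 and below all 4 irradiated arrays in 23. The median difference of these 33 was -0.74 with that array and -1.30 without it. Whether the spike-in loss on that array has a part in these differences was not tested beyond these values.

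Lower without control replicate 3 were, besides miR-21-5p, miR-27a-3p and miR-30e-5p (-1.33), miR-425-5p (-1.90), miR-27b-3p (-1.30), miR-196b-5p (-0.59), miR-365a-3p (-0.65), miR-92b-3p (-0.54), miR-539-5p (-0.45), miR-4299 (-1.09), miR-1273d (-0.51) and 5 fragment-like names. miR-425-5p stood at -1.14, -1.96, -4.60 and -1.70 at 0 Gy and at -3.82, -2.24, -3.36 and -4.60 at 10 Gy, so that replicate 3 alone joined the irradiated range, at the floor. Higher without it were, besides miR-149-3p, miR-516a-5p (0.82), miR-765 (0.65), miR-3605-5p (0.62), miR-508-5p (0.62), miR-711 (0.61), miR-371a-5p (0.59), miR-134-5p (0.57) and others down to 0.27. miR-508-5p was called only without that array, which was the highest of all 8. It stood at -3.65, -3.30, -2.24 and -3.41 at 0 Gy and at -2.66, -2.998, -2.84 and -2.84 at 10 Gy, with a difference of 0.32 ± 0.23 (adjusted p = 0.433) on all arrays.

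**Figure D4:**
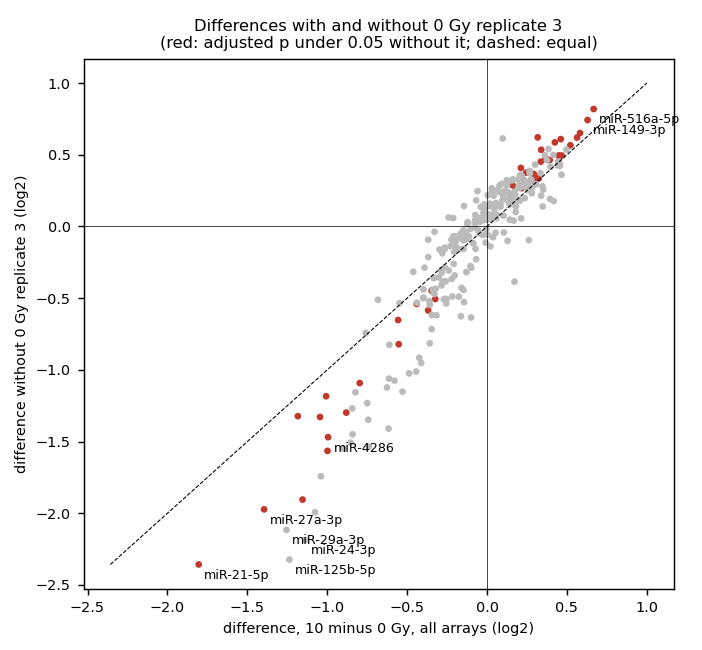
Difference at 10 minus 0 Gy on all arrays (horizontal) against the same difference without 0 Gy replicate 3 (vertical), both log2, 1 point for each of the 283 tested miRNAs and red for the 43 called without that array. Most negative points lie below the dashed line of equality, such as miR-125b-5p at -1.24 and -2.32, while miR-149-3p is at 0.63 and 0.74.

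By family, 157 of 164 listed names were on the array and 85 were tested. Only miR-149-3p was called in any list, so the lists are described by their medians, beside -0.02 for all 283 miRNAs (0.05 without control replicate 3). The p53-responsive list had 3 of 14 members tested, with a median of -0.26 (-0.54 without control replicate 3). The 1 called higher (0.353% of all miRNAs were) was miR-149-3p, on a list drawn up with earlier results known. miR-34a-5p, the main p53 target miRNA, stood at -2.16, -0.93, -4.44 and -0.71 at 0 Gy and at -2.74, -1.88, -2.35 and -3.75 at 10 Gy. The groups overlapped, with a difference of -0.62 ± 0.82 (adjusted p = 0.663), or -1.41 without control replicate 3 (adjusted p = 0.157). miR-145-5p, a tumour suppressor abundant in smooth muscle, differed by -0.26 ± 0.36 (adjusted p = 0.69). The other listed members, among them miR-34b, miR-34c, miR-192-5p and miR-215-5p, did not reach detection on all 4 arrays of a dose.

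Several families of cellular miRNAs had lower means in each listed member tested, none called. Of other arms of these hairpins, which were not listed, let-7d-3p (0.42), miR-125a-3p (0.23), miR-99b-3p (0.20) and miR-23a-5p (0.02) had higher means. Also unlisted, let-7f-1-3p was lower in all 4 probes, and the probes of let-7b-3p disagreed in sign. The 3 tested members of the let-7 list, which restrain growth genes in differentiated cells, had a median of -0.75. That median was -1.35 without control replicate 3, -0.97 with the spike-in level in the fit, -0.37 without 0 Gy replicate 2 and -0.49 with normexp. let-7b-5p stood at 0.58, 1.49, -1.39 and 1.07 at 0 Gy and at -0.53, 0.21, -0.28 and -1.03 at 10 Gy. Again the third control was lowest of all 8, and the difference was -0.84 ± 0.65 (adjusted p = 0.468). The miR-125 and miR-100 pair had a median of -1.14 (-2.03 without control replicate 3, -0.71 without 10 Gy replicate 4). The 4 tested members of the miR-23, miR-27 and miR-24 list had -1.01 (-1.64 without control replicate 3, -0.54 without 10 Gy replicate 4, -0.50 with normexp). The 5 of the growth-promoting miR-17-92 and miR-106b-25 clusters had -0.58 (-1.07 without control replicate 3, -0.31 without 0 Gy replicate 1, -0.28 with normexp). Among them miR-25-3p led at -1.08 ± 0.93 (adjusted p = 0.502) and miR-92a-3p was nearest 0 at -0.18, turning to 0.03 with scaling over all probes. The epithelial miR-200 family, with miR-200c-3p and miR-141-3p tested, had a median of -0.63. It was -1.34 without control replicate 3, and lay at -0.42 or -0.31 when the first or the fourth control was left out and at -0.33 when 10 Gy replicate 4 was. miR-221-3p with miR-222-3p had a median of -0.33 that ranged from -0.83 without control replicate 3 to -0.06 without 0 Gy replicate 2, and miR-222-3p turned from -0.16 to 0.04 with scaling over all probes. Among the 4 tested miRNAs tied to DNA repair or hypoxia the median was -0.95, with miR-210-3p, the hypoxia-induced miRNA, at -0.85 ± 0.65 (adjusted p = 0.461; -1.51 without control replicate 3) and miR-155-5p on the other side at 0.27. That median was -1.63 without control replicate 3, -0.60 with normexp or when the fourth control was left out, and -0.50 when 10 Gy replicate 4 was. The 3 tested of the colorectal carcinoma list, miR-21-5p, miR-31-5p and miR-183-5p, had a median of -0.90. It was -1.55 without control replicate 3, -0.55 without 10 Gy replicate 4 and -0.35 with normexp.

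Of the fragment-like names, which are withdrawn or may stand for fragments of other RNAs, 9 were tested, and all 9 had lower means. Of these, 7 had an unadjusted p under 0.05 (8.83% of all miRNAs were lower at that level), and 3 were without overlap (5.3% of all lay wholly below). The median was -0.84, -1.18 without control replicate 3, when 5 were called lower (5.65% of all), and -0.34 with normexp. Beside miR-1260b these include miR-4284, at -1.77, -3.60, -3.44 and -2.83 and then at -3.96, -3.62, -3.82 and -4.26, a difference of -1.01 ± 0.31 (adjusted p = 0.0801). Its highest irradiated array was just under its lowest control. miR-4286 differed by -0.99 ± 0.43 (adjusted p = 0.191) and miR-1246, reported as a vesicle-associated fragment of a small nuclear RNA, by -0.84 ± 0.58 (adjusted p = 0.42).

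Lists with higher medians were few. The 3 tested members of the embryonic and placental list, miR-371a-5p, miR-373-5p and miR-516a-5p, had differences of 0.42, 0.45 and 0.67. All were at an unadjusted p under 0.05 (13.4% of all miRNAs were higher at that level) and none was called. Other miRNAs of the placental cluster were tested but not listed, and their differences were smaller. These include miR-520b (0.29), miR-518e-5p (0.26), miR-520e (0.21), miR-526b-5p (0.21) and miR-498 (0.07 to 0.25 by probe). In the miR-30 family the main arm miR-30e-5p was lower, whereas miR-30d-5p, miR-30c-1-3p and miR-30c-2-3p had means higher by 0.35, 0.37 and 0.42 (adjusted p of 0.228 to 0.53). Of the 33 tested GC-rich or purine-rich miRNAs, which include the 5 miRNAs of highest signal, 24 had higher means, with a median of 0.14 that turned to -0.10 without scaling. miR-4281, of the highest signal, which says nothing of its amount, differed by 0.16 ± 0.22 (adjusted p = 0.675). The miR-320 family, made without DROSHA, had a median of -0.21 over 5 members, of which miR-320c and miR-320a turned positive with scaling over all probes.

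**Figure D5:**
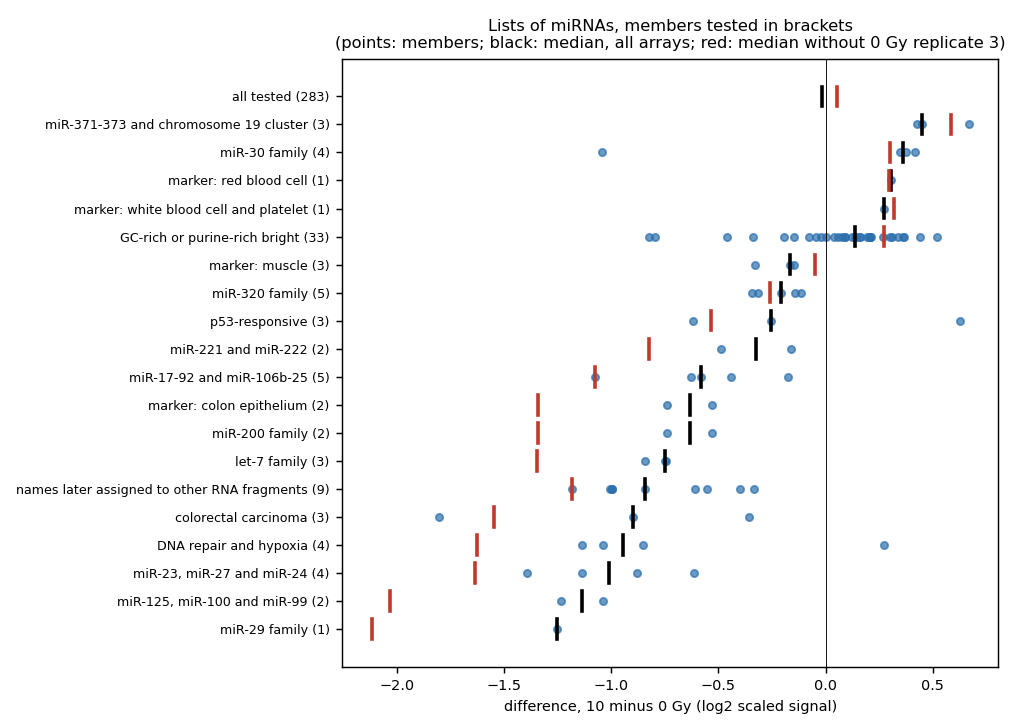
Difference at 10 minus 0 Gy in log2 scaled signal (horizontal) for the tested members of each list, with the number tested in brackets; points are members, black bars the list's median on all arrays and red bars the median without 0 Gy replicate 3. The median of all tested miRNAs is -0.02, the miR-29, miR-125 and miR-100 lists lie lowest, at -1.25 and -1.14, and the red bars of lists with lower medians mostly lie further left.

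Markers of cell types and of serum were read on the same arrays. The epithelial pair miR-200c-3p and miR-141-3p was detected on all 8 arrays, whereas the intestinal miR-192-5p, miR-194-5p and miR-215-5p were detected on 0 of them. The mean level of this tested pair ranged from -2.85 to 0.24 at 0 Gy and from -2.27 to -0.79 at 10 Gy. Of the red blood cell list only miR-486-5p was tested, with a higher mean of 0.31 ± 0.11 (adjusted p = 0.117) without overlap, from -3.81 to -3.67 at 0 Gy and from -3.48 to -3.38 at 10 Gy. miR-16-5p of the same list was not tested, being detected on 3 arrays at 0 Gy and 1 at 10 Gy. The defining red cell miRNAs miR-451a and miR-144-3p were detected on 0 of 8 arrays. Of 7 white cell and platelet markers only miR-155-5p was detected, from -3.21 to -2.84 and then from -2.73 to -2.68, and the other 6 were detected on 0 arrays. Its higher mean of 0.27 ± 0.09 did not pass (adjusted p = 0.118). The liver miRNA miR-122-5p was detected on 1 array of each dose. Of 6 muscle markers 3 were tested, their mean level ranging from -3.98 to -3.74 at 0 Gy and from -4.27 to -3.88 at 10 Gy, with a median difference of -0.17 that turned to 0.02 with scaling over all probes, and miR-1-3p was detected on 0 arrays.

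Fewer miRNAs were detected at 10 than at 0 Gy on average, without passing the test above. The difference of -34.5 became -17.5 without 10 Gy replicate 4, which detected 242 against 300 to 321 on the other irradiated arrays. Of 1205 human miRNAs 239 were detected on all 8 arrays and 820 on none of them. More miRNAs were detected on fewer arrays at 10 than at 0 Gy (104) than on more arrays (12), and 0 went from all arrays of a dose to none of the other. The steepest losses were from 3 arrays at 0 Gy to 0 at 10 Gy, or from 4 to 1. From 3 to 0 went miR-19a-3p, miR-26a-5p, miR-30b-5p, miR-103a-3p, miR-128-3p, miR-151a-5p, miR-200a-3p, miR-3651, miR-4291 and miR-4324. From 4 to 1 went miR-195-3p and miR-539-5p. The steepest gain was that of miR-449c-3p, from 0 arrays to 3. No test was made of single detections.

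Whether 10 Gy differed from the lower doses was asked on the same fit, in which the 6 Gy and 10 Gy arrays shared a slide. Against 6 Gy 0 miRNAs were called by limma, with 42 (14.8%) at an unadjusted p below the 0.05 level, of which 26 were higher (9.19%) and 16 lower (5.65%), and miR-149-3p differed by 0.36 ± 0.12 (adjusted p = 0.321). Same-numbered arrays of these doses deviated together, so the fit within pairs, added after the data were seen, belongs beside it. The paired fit called 55 (19.4%), 36 higher (12.7%) and 19 lower (6.71%). These calls fell to 5, 21, 3 and 38 when pair 1, 2, 3 or 4 was left out. The same block on all 16 arrays called 0, with 66 below that level, and only 2 of the 4 10 Gy arrays correlated best with the 6 Gy array of their own number. The labelling spike-in was lower at 6 than at 10 Gy in each pair, at 1.67, 5.50, 5.95 and -2.32 (undetected) against 6.85, 9.02, 7.58 and 6.06, and its part in these calls was not tested.

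In the paired fit all 3 tested members of the let-7 list were called higher at 10 than at 6 Gy (12.7% of all miRNAs were). So were miR-125b-5p, miR-100-5p, miR-200c-3p, miR-141-3p, miR-221-3p and miR-222-3p. Other lists varied: 1 of 1 tested for miR-29, 2 of 3 p53-responsive, 2 of 4 for DNA repair or hypoxia. It was 2 of 5 each for miR-320 and for miR-17-92 with miR-106b-25, 1 of 9 fragment-like names and 1 of 33 GC-rich or purine-rich miRNAs. None was called higher among the 3 tested for colorectal carcinoma, the 4 of miR-23, miR-27 and miR-24 and the 4 of miR-30. miR-25-3p was at -4.26, -2.54, -2.92 and -4.60 at 6 Gy against -2.28, -0.24, -1.47 and -2.48 at 10 Gy. Each 10 Gy array was above its 6 Gy partner, by 1.96 ± 0.15 on average (adjusted p = 0.00469). miR-149-3p was higher by 0.36 ± 0.08 in that fit (adjusted p = 0.0408), in 4 of 4 pairs. Lower were miR-3667-5p at -0.61 ± 0.10 (adjusted p = 0.0319) and the muscle pair miR-133a-3p and miR-133b at -0.48 and -0.46.

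Against 2 Gy, whose arrays lay on the other slide, 0 miRNAs were called, with 20 (7.07%) below 0.05 before adjustment, of which 18 were higher (6.36%) and 2 lower (0.707%). The smallest p were those of miR-877-3p (0.35 ± 0.12), miR-221-3p (1.54 ± 0.52) and let-7d-3p (0.84 ± 0.29), each at an adjusted p of 0.524. miR-149-3p stood at -2.37, -2.71, -2.41 and -2.44 at 2 Gy, reaching slightly beyond both ends of its 10 Gy levels (-2.62 to -2.40). Its mean differed by 0.00 ± 0.12 (adjusted p = 0.998). The 2 Gy arrays shared slide columns 3 and 4 with the 10 Gy arrays. The 6 Gy arrays, in columns 1 and 2 like the 0 Gy arrays, had miR-149-3p at -2.92, -2.87, -2.90 and -2.68, between the means of 0 and 10 Gy. The part of the column in these differences was not tested.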

How the data were processed

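Per the file headers, each deposited file is the output of Feature Extraction (version 11.5.1.1) for 1 single-colour Agilent miRNA array, and its processed signal is an intensity from which background was taken, unscaled across arrays. Per the labels' protocols, Cy3 labelling used 100 ng of RNA prepared with ISOGEN.

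Control spots (2164 of 56044) and outlier-flagged spots (3.93 to 4.57% on the 8 arrays) were left out, no spot was saturated, and the spots of a probe were averaged. Detection of a probe needed a share over 0.5 of its spots flagged as well above background. Arrays were divided by the 75th percentile over the 518 probes detected on all 16 arrays, floored at 0.0412, and logged. A miRNA was the mean of its passing probes, 592 probes for 283 miRNAs, with 4.17% of values at the floor. limma 3.58.1 in R 4.3.3 (data.table, version 1.17.8; figures with Python 3.11.15 and matplotlib 3.10.9) fitted a mean per dose on all 16 arrays, without a block. The number of arrays limits precision.

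The comparison, lists, alternatives and naming rule were chosen with earlier results of these data known. The named set holds the called miRNAs, the 12 smallest p and 5 largest differences each way, the 5 brightest, and list members (every tested one up to 6, otherwise the 4 largest). Not every miRNA of that set is given singly in the text. Names given only without 0 Gy replicate 3, in the paired fit or by detection were picked with their values in view. For 6 and 10 Gy the deviations of same-numbered arrays correlated at 0.226 to 0.715, all 4 over 0.1, so these numbers were taken as pairs. For 2 and 10 Gy they correlated at -0.636 to 0.870, 3 over 0.1. There 3 of the 4 10 Gy arrays matched their own number best, so such matching was not particular to 6 Gy. The fit was tested on simulated data with independent normal errors, without a deviating array or a floor. That test does not show how the fit behaves with such features of these data.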

Additional observations from a re-analysis of the deposited data

Results flagged for a closer look

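Of 152 groups of 4 arrays examined (named miRNAs and array measures at 0 and 10 Gy), 16 (10.5%) held an array whose gap to the nearest other, divided by the group's range, was above the critical value of Dixon's test, where chance gives about 1 in 20. At 0 Gy replicate 3 held 9 of them. There miR-29a-3p was at -1.87 (others from 1.40), miR-125b-5p at -3.43, miR-100-5p at -3.23, miR-31-5p at -4.60, miR-25-3p at -3.29 and miR-17-5p at -2.67, all low, while miR-1202 at 4.77 and miR-30c-1-3p at -2.71 were high. The labelling spike-in of that array was at -2.32, against 8.30 to 10.1. At 0 Gy replicate 1, miR-134-5p was at 1.64, miR-601 at -0.49 and miR-422a at -3.23, all low. At 10 Gy replicate 2 miR-92b-3p was at -4.56, just above the floor where the other 3 lay. At 10 Gy replicate 4 miR-24-3p was at -4.60, miR-31-5p at -4.60 and miR-141-3p at -1.72, all low.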

How the results depend on the processing

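The count of 1 miRNA called for 10 against 0 Gy became 0 without scaling, 22 with scaling over all probes (20 higher), 17 with quantile normalization (15 higher), 0 with normexp, 6 with Agilent's total signal, 7 with only probes detected on all 8 arrays, 3 with no detection filter, 0 with only the 8 arrays, 11 with slide row as a block, 59 with the spike-in covariate, and 70 without both 0 Gy replicate 3 and 2 Gy replicate 2. With no detection filter most residual variances were 0, which makes that count unreliable. Normexp was used with an offset of 50, which draws the differences of dim miRNAs towards 0, apart from any effect of background. The replicate block gave 0 on 8 arrays (miR-149-3p at adjusted p = 0.318) and 7 on 16; same-numbered deviations correlated at -0.713 to 0.589 and 0 of 4 arrays matched its own number best. Leaving out 1 array gave 0 to 43. Counts of 0 had 22 to 59 miRNAs at an unadjusted p under 0.05. For 10 against 6 Gy each alternative chosen beforehand with earlier results known gave 0 (9 to 69 at an unadjusted p under 0.05), and the added replicate block on 8 arrays 55. For 10 against 2 Gy only the 8 arrays gave 1 and the added replicate block 12, others 0 (8 to 64 before adjustment). The difference in detected miRNAs ranged from -43.8 to -17.5 with 1 array left out (exact permutation p = 0.0286 without 10 Gy replicate 1), and that in array level from -0.37 to -0.09. Slide as a random block could not be fitted, as each dose lay on 1 slide.

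Of 2150 values of 72 named miRNAs under the alternatives, 1948 kept direction and side of the threshold, 168 newly passed it, 11 no longer did and 23, of 12 miRNAs, reversed. Without scaling miR-4281 was -0.0761, miR-762 -0.0759, miR-1225-5p -0.182 and miR-1202 -0.115. With scaling over all probes miR-133a-3p was 0.0249, miR-133b 0.0257, miR-92a-3p 0.0269, miR-222-3p 0.0401, miR-320c 0.0588 and miR-320a 0.0895. With quantile normalization miR-762 was -0.0214 and miR-1225-5p -0.108. With normexp miR-133a-3p was 0.0635, miR-133b 0.0619, miR-539-5p 0.0182 and miR-206 0.0170. With arrays left out, singly or both, miR-1225-5p ranged from -0.0069 (without 0 Gy replicate 2) to 0.163, miR-92a-3p from -0.490 to 0.0908 (without 0 Gy replicate 2), miR-222-3p from -0.626 to 0.0742 (without 0 Gy replicate 2; also positive without 0 Gy replicate 4 or 10 Gy replicate 4) and miR-320c from -0.290 to 0.142 (without 0 Gy replicate 3). The cause was not tested. The floor bounds the levels of dim miRNAs, so the size of their differences cannot be read below it.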
